A study of Mus musculus with 8 samples.

Results

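The lysosomal gene set described here comprised 54 genes: 33 soluble lysosomal proteins (10 proteases, 11 glycosidases, 4 sulfatases, 6 lipid hydrolases or lipid carriers and 2 acid phosphatases), 7 lysosomal membrane proteins, 11 genes of the vacuolar H+-ATPase (V-ATPase) and the 3 transcription factors *Tfeb*, *Tfe3* and *Mitf*. They were listed by name from general knowledge of the lysosome. The rule itself uses no measured value, but the list was drawn up with earlier results of these data known. Each symbol matched 1 Ensembl gene among the 54838 genes counted, and all 54 passed the filter on low counts, which retained 12405 genes. Expression was measured by RNA-seq in murine *iMLL-AF9* leukemic cells, which carry a doxycycline-inducible allele of the *MLL-AF9* fusion oncogene on a C57BL/6 background. Cells received IOX5, an inhibitor of the hypoxia inducible factor (HIF) prolyl hydroxylases (PHDs), or DMSO, its vehicle, with 4 samples per group numbered 1 to 4 in each. Both groups therefore carried the oncogene and differed by treatment. The labels give bone marrow as the source, leukaemic stem cells as the cell type and WT as the genotype, whereas the design text calls the cells preleukaemic. The sources used here tie no dose or duration of treatment to these RNA samples, and they do not say what the replicate numbers mark. Nothing in the labels shows that the 4 samples of a group came from separate cultures or animals, so p-values measure the spread between these samples, which may be technical.

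Lysosomes are acidic organelles in which soluble hydrolases degrade proteins, glycans, lipids and nucleic acids delivered by endocytosis and autophagy. The V-ATPase pumps protons into the lumen, membrane proteins such as LAMP1 and LAMP2 line it, and most hydrolases reach it by the mannose 6-phosphate sorting route. TFEB, TFE3 and MITF are related basic helix-loop-helix factors that bind E-box letters in promoters of many lysosomal genes, and in myeloid cells lysosomal content is known to grow during macrophage differentiation.

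Between 12343770 and 14116054 reads per DMSO sample and between 11351507 and 12708888 per IOX5 sample were counted on genes. The 54 lysosomal genes took 0.968% to 1.20% of these reads in the DMSO samples and 1.12% to 1.79% in the IOX5 samples. IOX5 replicate 2, with 1.79%, stood apart from the other IOX5 samples, whose shares were 1.20%, 1.14% and 1.12%. It held the highest of all 8 values for 43 of the 54 genes. The sum of 18 macrophage markers was also highest in that sample, at 588 CPM (TMM-normalized read counts on a common library size), against 237 to 262 CPM in the other IOX5 samples and 157 to 236 CPM in the DMSO samples. Of these markers, 3 (*Vsig4*, *Timd4* and *Clec4f*) had 0 counts in all 8 libraries and 8, these included, averaged under 1 CPM. *Adgre1*, which encodes F4/80, reached 171 CPM in IOX5 replicate 2, against 65.7 to 87.2 CPM in the remaining IOX5 samples. Its DMSO samples were lower than every IOX5 sample, at 32.3 to 54.4 CPM. Of the 11 macrophage markers tested, 3 were called higher by DESeq2 (*Adgre1*, *Mrc1* and *Cd14*), and 6 were called higher and 1 lower (*Fcgr1*) by edgeR with the replicate number as a block, as described below, beside 4.67% of all genes called higher by DESeq2 and 11.2% called higher with the block. The part of macrophage content in the lysosomal values was not tested, and in bulk RNA more cells of a type cannot be told apart from more RNA per cell. Without IOX5 replicate 2 the log2 fold change was smaller by over 1.5 times, or of the other sign, for 36 of the 54 genes, and for the genes described below whose value moved that far it is given as well. DMSO replicate 2 stayed in that comparison, and it was the highest DMSO sample for 35 of the 54 genes. Values given without IOX5 replicate 2 alone therefore do not compare samples within their numbers. Genes of a list for MLL-AF9 progenitors were expressed in every sample (summed CPM of 11 genes, 1755 to 2203), and B cell and T cell markers summed to at most 8.71 and 8.45 CPM. The progenitor list held *Hoxa9*, *Hoxa10*, *Meis1*, *Mecom*, *Myb*, *Kit* and *Cd34*, and also *Ptprc*, *Itgam*, *Fcgr3* and *Spi1*. Sums of 16 granulocyte markers ran from 4938 to 7826 CPM with DMSO and from 5606 to 8818 CPM with IOX5, of 9 erythroid markers from 646 to 888 and from 656 to 914, of 8 megakaryocyte markers from 26.6 to 73.0 and from 90.9 to 150.2, and of 7 dendritic cell markers from 4.63 to 8.26 and from 8.60 to 21.9. Markers in other lists were called too. With the block 7 of the 7 mast cell or basophil markers tested were called higher, as were 10 of 15 granulocyte, 4 of 6 megakaryocyte, 2 of 6 erythroid and 2 of 2 dendritic cell markers and 5 of 11 of the progenitor list, and 0 of these were called lower. The 5 of the progenitor list were *Kit*, *Cd34*, *Itgam*, *Mecom* and *Myb*, whereas *Hoxa9*, *Hoxa10* and *Meis1* were not called. Their part in the lysosomal values was not tested either.

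Lysosomal hydrolase and carrier transcripts were higher with IOX5 than with DMSO for most genes, by modest amounts. The sphingolipid activator *Gm2a* rose from 81.7 ± 9.64 CPM to 118 ± 12.9 CPM (mean ± SD, n = 4), a log2 fold change of 0.53. *Ctsd*, *Gla*, *Arsb*, *Npc2*, *Lipa*, *Scarb2*, *Mcoln1*, *Atp6v1d* and *Atp6ap1* also separated without overlap, all IOX5 samples being the higher ones, whereas *Lamp1*, *Lamp2* and the TFEB family genes differed by less than the spread between samples. The median log2 fold change was 0.32 over the 33 soluble proteins, 0.21 over the 7 membrane proteins, 0.18 over the 11 V-ATPase genes, 0.11 over the 3 TFEB family genes and 0.22 over all 54, beside 0.017 over the 12405 genes tested. Without IOX5 replicate 2 the medians fell to 0.09 for the soluble proteins, 0.05 for the membrane proteins, 0.03 for the V-ATPase genes, -0.09 for the TFEB family genes and 0.08 for all 54. These medians kept DMSO replicate 2, the highest DMSO sample for 35 of the 54 genes. When both samples numbered 2 were left out and the rest compared within their numbers, the median of all 54 genes was 0.13.

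Calls were made by edgeR's quasi-likelihood test with Benjamini-Hochberg adjustment over all 12405 genes, at an adjusted p under 0.05. In the comparison without a term for the replicate number, 1 of the 54 genes was called higher (*Gm2a*) and 0 lower, beside 0.774% of all genes tested called higher and 1.25% called lower, or 2.02% in either direction. At an unadjusted p under 0.05, 14 of the 54 genes passed in this comparison, beside 2506 of all 12405 genes tested. DMSO and IOX5 samples of the same number departed from their group means in the same way, although numbers 3 and 4 also resembled each other, and a second fit took that number as a block and compared IOX5 with DMSO within each number. With the block, 23 genes were called higher (42.6% of the 54, beside 11.2% of all genes tested) and 1 lower (*Ctsc*; 9.43% of all genes tested were called lower). DESeq2 without the block called 7 genes higher (*Ctsd*, *Gla*, *Glb1*, *Arsb*, *Gm2a*, *Npc2* and *Atp6v1d*) and 0 lower, beside 4.67% and 5.75% of all genes. With the block but without both samples numbered 2, 17 genes were called higher and 1 lower (background 9.03% and 8.2%). All 17 were among the 23, and *Ctsa*, *Ctsh*, *Idua*, *Acp2*, *Atp6v1e1* and *Atp6ap1* lost the call. Leaving out number 1, 3 or 4 in the same way gave 22, 14 and 23 genes higher and 1 lower each. Over all genes tested, 994 of 12319, 642 of 12479 and 1355 of 12474 were then called higher, and 650, 403 and 1058 lower.

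The direction was shared more widely than the calls. Of the 54 genes, 46 had a log2 fold change above 0 (85.2%, beside 52.8% of all genes tested). Without IOX5 replicate 2, but with DMSO replicate 2 kept, it was above 0 for 37 (68.5%, beside 50% of all genes tested). In that comparison 9 genes passed from above to below 0. IOX5 exceeded DMSO in all 4 replicate pairs for 28 genes (51.9%, beside 21.3%) and was below it in all 4 pairs for 3, *Ctsc*, *Gusb* and *Atp6v1h* (background 19.8%). Every IOX5 sample was above every DMSO sample for 10 genes (18.5%, beside 5.98%), and every IOX5 sample was below every DMSO sample for 0 (background 8.3%). The size of the difference varied between pairs. Its median over the 54 genes was 0.08, 0.45, 0.18 and 0.09 on the log2 scale for numbers 1 to 4, and number 2 gave the largest difference for 47 genes.

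**Figure D1:**
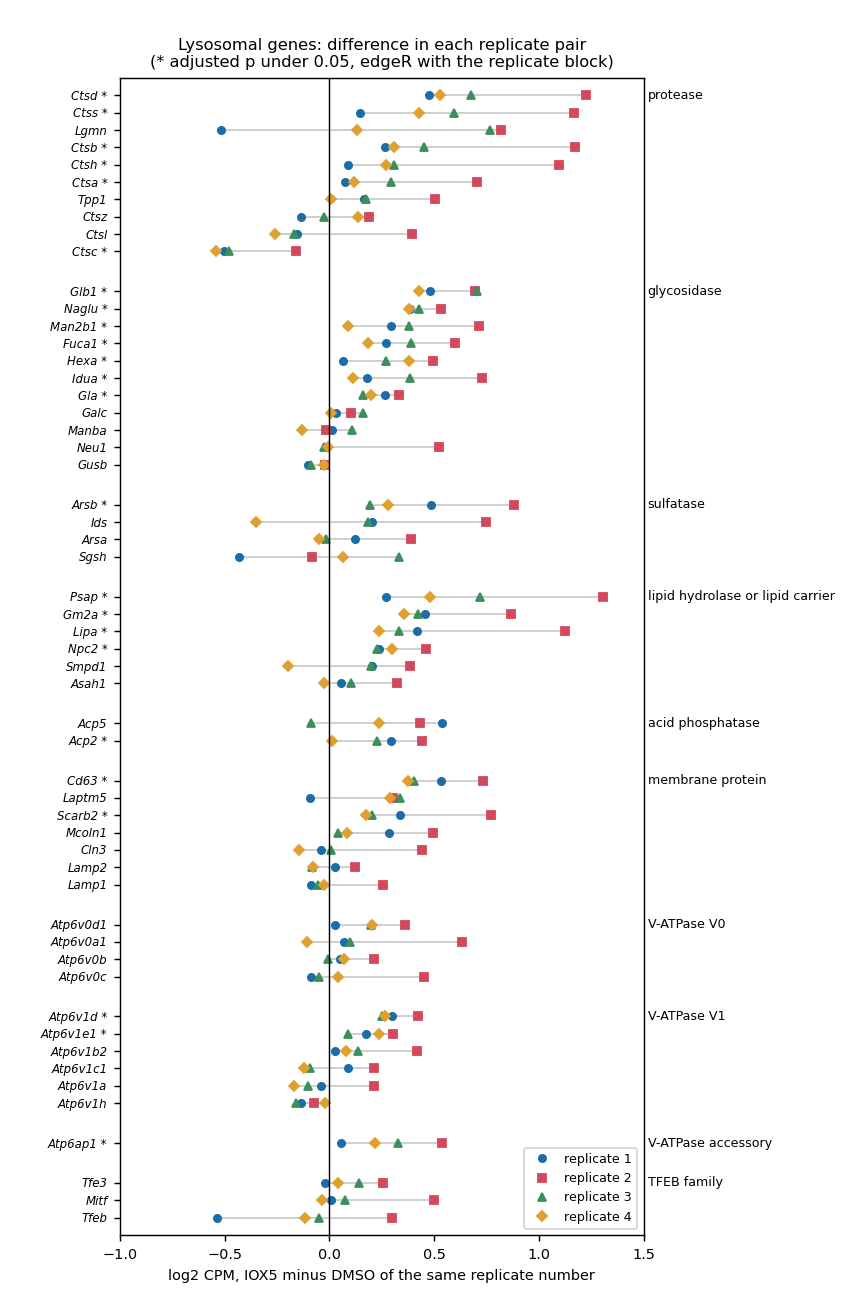
Difference in log2 CPM between the IOX5 and the DMSO sample of the same replicate number (horizontal axis) for each of the 54 lysosomal genes (rows, grouped by class), with 1 symbol per replicate number and a grey line over their range. Number 2 (red squares) lies farthest to the right for 47 of the 54 genes, and *Ctsc*, *Gusb* and *Atp6v1h* lie left of 0 in all 4 pairs.

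Among the proteins that handle lipids, *Gm2a* (ENSMUSG00000000594; GRCm38 chromosome 11, 55098115 to 55113029) encodes the activator that presents GM2 ganglioside to hexosaminidase A. Its values were 93.6, 70.2, 82.8 and 80.1 CPM with DMSO and 128, 128, 111 and 103 CPM with IOX5 in samples 1 to 4. All 4 IOX5 samples lay above all DMSO samples, and the log2 fold change of 0.53 ± 0.11 (SE) was called by edgeR (adjusted p = 0.0469; 9.27e-04 with the block). Leaving out any sample but IOX5 replicate 4 took the adjusted p without the block to between 0.0689 and 0.135, whereas with the block it stayed between 1.12e-04 and 0.00657 when any number was left out. Without the block, 0 of all genes were called when DMSO replicate 3, DMSO replicate 4 or IOX5 replicate 3 was left out. *Psap* (ENSMUSG00000004207; GRCm38 chromosome 10, 60277627 to 60302597) encodes prosaposin, the precursor of 4 other sphingolipid activators, and it was the most abundant of the 54 genes per length. Its values were 1038, 1256, 849 and 965 CPM with DMSO and 1251, 3107, 1397 and 1348 CPM with IOX5. IOX5 replicate 2 was far above every other sample, and the lowest IOX5 value, in replicate 1, fell just below the highest DMSO value, in replicate 2. The log2 fold change was 0.79 ± 0.29 with all samples and 0.38 without IOX5 replicate 2, and it was called only with the block (edgeR adjusted p = 0.175 without and 0.00207 with it).

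*Lipa* (ENSMUSG00000024781; GRCm38 chromosome 19, 34492318 to 34527474), lysosomal acid lipase, which cleaves cholesteryl esters and triglycerides, was at 104, 110.1, 90.5 and 95.4 CPM with DMSO and 139, 240.3, 114 and 112 CPM with IOX5. The groups did not overlap, although IOX5 replicates 3 and 4 exceeded the highest DMSO sample by little. By edgeR the log2 fold change of 0.60 ± 0.23 had an adjusted p of 0.195, and 0.00594 with the block, and without IOX5 replicate 2 it was 0.28. *Npc2* (ENSMUSG00000021242; GRCm38 chromosome 12, 84754562 to 84773152) binds cholesterol in the lumen and passes it to NPC1. It was at 291, 312, 305 and 301 CPM with DMSO, the 4 samples lying close together, and at 344, 429.6, 356 and 369.9 CPM with IOX5. Each IOX5 sample was above each DMSO sample, with a log2 fold change of 0.31 ± 0.08 (edgeR adjusted p = 0.0676; 0.00607 with the block; 0.00927 with the block without number 2). The other lipid genes, acid ceramidase *Asah1* and acid sphingomyelinase *Smpd1*, had log2 fold changes of 0.12 and 0.17 (0.04 and 0.08 without IOX5 replicate 2) and were called in neither fit. In this class 1 of 6 genes was called without the block and 4 of 6 with it.

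Cathepsin D, an aspartic protease encoded by *Ctsd* (ENSMUSG00000007891; GRCm38 chromosome 7, 142375911 to 142388038), was at 371, 375, 324 and 359 CPM with DMSO and at 517, 877, 518 and 519 CPM with IOX5. IOX5 replicates 1, 3 and 4 lay between 516.9 and 518.6 CPM, well above the DMSO range, and replicate 2 was higher still. In the fit without the block the log2 fold change was 0.76 ± 0.17 (edgeR adjusted p = 0.0584; 4.91e-04 with the block). Without IOX5 replicate 2 it was 0.54, with a smaller spread between the remaining samples, and passed the threshold without the block (adjusted p = 0.0290). *Ctss*, cathepsin S, a cysteine protease of antigen-presenting cells that helps to trim the invariant chain, was at 83.9, 119, 70.1 and 90.5 CPM with DMSO and 93.0, 268, 106 and 122 CPM with IOX5. These groups overlapped because DMSO replicate 2 exceeded IOX5 replicates 1 and 3, although IOX5 was above DMSO within each number. Its log2 fold change was 0.69 ± 0.33 (edgeR adjusted p = 0.280; 0.00426 with the block) and 0.24 without IOX5 replicate 2.

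*Ctsz*, the carboxypeptidase cathepsin Z and the most abundant protease per length, was at 542, 665, 436 and 470.1 CPM with DMSO and 494, 757, 428 and 517 CPM with IOX5. The ranges overlapped and the pairs were split evenly, with a log2 fold change of 0.06 ± 0.19 (edgeR adjusted p = 0.899; 0.709 with the block), and -0.14 without IOX5 replicate 2. *Ctsc* (ENSMUSG00000030560; GRCm38 chromosome 7, 88278085 to 88310888), described here because its values stood out, encodes the dipeptidyl peptidase that activates the granule serine proteases of neutrophils and mast cells. It was at 349.5, 632, 357 and 396 CPM with DMSO and 246, 565, 256 and 272 CPM with IOX5. Both samples numbered 2 were well above the rest of their groups, and within each number IOX5 was below DMSO. The log2 fold change of -0.37 ± 0.30 was not called by edgeR without the block (adjusted p = 0.532), and it was -0.75 without IOX5 replicate 2. With the block it was -0.42 ± 0.07 (adjusted p = 0.00185), and -0.51 with both samples numbered 2 left out (adjusted p = 3.45e-06). The other 6 proteases (*Ctsa*, *Ctsb*, *Ctsh*, *Ctsl*, *Lgmn* and *Tpp1*) had log2 fold changes between 0.02 and 0.66, and between -0.34 and 0.19 without IOX5 replicate 2. With the block *Ctsa*, *Ctsb* and *Ctsh* were called higher, so that 5 of the 10 proteases were called higher and 1 lower.

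The glycosidases remove sugars from glycoproteins, glycolipids and glycosaminoglycans. *Gla* (ENSMUSG00000031266; GRCm38 chromosome X, 134588149 to 134601125), alpha-galactosidase A, varied little within each group, at 81.8, 80.7, 85.3 and 84.1 CPM with DMSO and 98.3, 102, 95.2 and 96.4 CPM with IOX5. No IOX5 sample reached down to the DMSO range. Between the groups the log2 fold change was 0.24 ± 0.05 (edgeR adjusted p = 0.0526; 0.0185 with the block; 4.86e-04 by DESeq2), and 0.22 without IOX5 replicate 2. *Glb1* (ENSMUSG00000045594; GRCm38 chromosome 9, 114401076 to 114474898), acid beta-galactosidase, whose activity is the usual stain for senescent cells, was at 71.9, 45.5, 75.3 and 75.1 CPM with DMSO and 100.2, 73.7, 123 and 101 CPM with IOX5. The lowest sample of each group was replicate 2, unlike for most lysosomal genes, and within each number IOX5 was higher. Its log2 fold change was 0.57 ± 0.19 (edgeR adjusted p = 0.145; 2.24e-04 with the block; 5.69e-06 with the block without number 2). It shares 165 exonic bases on the same strand with *Tmppe*, on which 2909 reads were counted against 8323 on *Glb1*, and how reads in shared bases were assigned is not given in the sources used here.

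*Gusb*, beta-glucuronidase and the most abundant glycosidase per length, was at 554, 638, 451 and 451 CPM with DMSO and 516, 628, 425 and 443 CPM with IOX5. The ranges overlapped, and IOX5 was slightly below DMSO within each number. The log2 fold change of -0.06 ± 0.15 was not called (edgeR adjusted p = 0.871; 0.527 with the block), and it was -0.18 without IOX5 replicate 2. The other 8 glycosidases had log2 fold changes between -0.0049 (*Manba*) and 0.43 (*Naglu*), and between -0.06 and 0.37 without IOX5 replicate 2. With the block *Hexa*, the alpha subunit of hexosaminidase A, *Man2b1*, *Naglu*, *Idua* and *Fuca1* were called, which made 7 of 11 glycosidases higher and 0 lower, whereas *Galc*, *Manba* and *Neu1* were not called. Among enzymes that break down heparan sulfate, *Naglu* and *Idua* were called with the block and the sulfamidase *Sgsh*, with a log2 fold change of -0.05 (-0.27 without that sample), was not, and the difference between them was not tested.

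Of the 4 sulfatases, *Arsb* (ENSMUSG00000042082; GRCm38 chromosome 13, 93771630 to 93943016), which removes sulfate from dermatan and chondroitin sulfate, was at 64.1, 47.4, 72.1 and 60.5 CPM with DMSO and 89.8, 87.5, 82.4 and 73.4 CPM with IOX5. The lowest IOX5 sample was just above the highest DMSO sample. In the fit without the block the log2 fold change was 0.45 ± 0.12 (edgeR adjusted p = 0.0943; 0.00506 with the block; 0.0130 by DESeq2). *Ids*, iduronate 2-sulfatase, was low, at 14.5, 11.7, 9.34 and 11.1 CPM with DMSO and 16.7, 19.7, 10.6 and 8.67 CPM with IOX5. Both the lowest and the highest values belonged to IOX5 samples, and the log2 fold change of 0.25 ± 0.26 was not called (edgeR adjusted p = 0.634; 0.302 with the block; 0.04 on the log2 scale without IOX5 replicate 2). *Arsa* and *Sgsh* were called in neither fit.

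By level per length with DMSO, the acid phosphatases *Acp2* and *Acp5* ranked 45 and 53 among the 54 genes. *Acp2* was at 35.6, 40.3, 31.7 and 32.6 CPM with DMSO and 43.6, 54.8, 37.1 and 32.9 CPM with IOX5. IOX5 was higher within each number, but the groups overlapped and the difference within number 4 was small. Its log2 fold change of 0.26 ± 0.16 was called with the block (edgeR adjusted p = 0.0493) but not without it (0.384) or with the block without number 2 (0.147), and without IOX5 replicate 2 alone it was 0.11. *Acp5*, the tartrate-resistant phosphatase of osteoclasts and macrophages, was at 3.81, 3.97, 3.01 and 2.55 CPM with DMSO and 5.61, 5.42, 2.81 and 3.04 CPM with IOX5. Replicates 1 and 2 were higher with IOX5 and replicates 3 and 4 were close to their DMSO samples, and the log2 fold change of 0.34 ± 0.29 was not called (edgeR adjusted p = 0.550; 0.210 with the block) and became 0.20 without IOX5 replicate 2.

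Among the membrane proteins, *Scarb2* (ENSMUSG00000029426; GRCm38 chromosome 5, 92441314 to 92506833) encodes LIMP-2, the receptor that carries glucocerebrosidase to the lysosome. Its values were 67.1, 71.5, 68.8 and 68.0 CPM with DMSO and 84.8, 122, 79.2 and 76.8 CPM with IOX5. The DMSO samples lay within 5 CPM of each other and every IOX5 sample was above them. The log2 fold change was 0.40 ± 0.14 (edgeR adjusted p = 0.162; 0.0110 with the block), and 0.22 without IOX5 replicate 2. *Mcoln1*, the calcium channel mucolipin 1, was at 31.0, 29.5, 32.9 and 31.3 CPM with DMSO and 37.8, 41.6, 33.8 and 33.2 CPM with IOX5. The groups did not overlap, but IOX5 replicates 3 and 4 were close to the highest DMSO sample. Its log2 fold change of 0.23 ± 0.09 was not called (edgeR adjusted p = 0.195; 0.0883 with the block).

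*Lamp1* and *Lamp2* encode the main glycoproteins of the lysosomal membrane. *Lamp1* (ENSMUSG00000031447; GRCm38 chromosome 8, 13159161 to 13175338) was at 582, 751, 578 and 590.4 CPM with DMSO and 547, 898, 557 and 579.7 CPM with IOX5. Both samples numbered 2 were far above the rest, which lay between 546.8 and 590.4 CPM in either group. Between the groups the log2 fold change was 0.05 ± 0.17 (edgeR adjusted p = 0.909; 0.852 with the block), and -0.16 without IOX5 replicate 2. *Lamp2* was at 558, 653, 615 and 653 CPM with DMSO and 569, 711, 579.9 and 618 CPM with IOX5. The ranges overlapped, with a log2 fold change of -0.0012 ± 0.09 (edgeR adjusted p = 0.996; 0.974 with the block), and -0.07 without IOX5 replicate 2.

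*Laptm5*, a lysosomal transmembrane protein of blood cells and the membrane gene with the highest CPM before correction for length, was at 773, 866, 592 and 591 CPM with DMSO and 724, 1067, 748 and 722 CPM with IOX5. IOX5 was higher in numbers 2 to 4 and lower in number 1, and the log2 fold change of 0.21 ± 0.17 was not called (edgeR adjusted p = 0.530; 0.0733 with the block), and it was 0.05 without IOX5 replicate 2. *Cd63*, a tetraspanin of late endosomes and granules, was called with the block (log2 fold change 0.51 ± 0.07, edgeR adjusted p = 5.42e-04) but not without it (0.48 ± 0.22, adjusted p = 0.252). As for *Glb1*, its lowest sample in each group was replicate 2. *Cd63* is also abundant in mast cells and basophils, and the sum of 10 markers of those cells was 149 and 151 CPM in DMSO replicates 1 and 2, 571 and 490 CPM in 3 and 4, and 182, 299, 960 and 746 CPM in IOX5 replicates 1 to 4. Their part in the *Cd63* values was not tested. In the membrane class 0 of 7 genes were called without the block and 2 with it, and *Cln3* was called in neither fit.

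The V-ATPase consists of a membrane-embedded V0 sector that conducts protons and a cytosolic V1 sector that hydrolyses ATP. The V1 stalk subunit *Atp6v1d* (ENSMUSG00000021114; GRCm38 chromosome 12, 78840725 to 78861638) was at 69.0, 74.5, 74.7 and 75.1 CPM with DMSO and 84.9, 99.99, 88.9 and 90.3 CPM with IOX5. Every IOX5 sample was above every DMSO sample. The log2 fold change was 0.31 ± 0.07 (edgeR adjusted p = 0.0515; 0.00493 with the block; 0.00867 with the block without number 2). The accessory subunit *Atp6ap1* was at 214, 216, 184 and 199.8 CPM with DMSO and 222, 314, 231 and 232 CPM with IOX5. The groups were again separate, with IOX5 replicate 1 nearest to the DMSO range. Its log2 fold change of 0.30 ± 0.12 was called only with the block (edgeR adjusted p = 0.198 without and 0.0192 with it), and the latter was 0.0513 without number 2. Without IOX5 replicate 2 alone the log2 fold change was 0.17.

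Another V1 subunit, *Atp6v1e1*, was at 142, 149, 116 and 123 CPM with DMSO and 160.1, 184, 123 and 145 CPM with IOX5. The groups overlapped and IOX5 was higher within each number, with a log2 fold change of 0.21 ± 0.13 (edgeR adjusted p = 0.411; 0.0409 with the block), and 0.11 without IOX5 replicate 2. The catalytic V1 subunit *Atp6v1a*, the most abundant V1 gene per length, was at 424, 463, 377 and 388 CPM with DMSO and 413, 537, 351 and 345 CPM with IOX5. Only in number 2 was IOX5 the higher sample, and the log2 fold change was -0.0055 ± 0.14 (edgeR adjusted p = 0.989; 0.842 with the block), and -0.16 without IOX5 replicate 2. In the V0 sector, *Atp6v0d1* was at 177, 185, 158 and 164 CPM with DMSO and 181, 237, 181 and 189 CPM with IOX5. IOX5 was higher within each number, but the difference in number 1 was small, and the log2 fold change of 0.20 ± 0.10 was not called (edgeR adjusted p = 0.293; 0.0560 with the block) and became 0.10 without IOX5 replicate 2. *Atp6v0b*, a proteolipid of the proton-conducting ring, was at 185, 199, 196 and 202 CPM with DMSO and 191, 231, 196 and 212 CPM with IOX5. Its log2 fold change was 0.08 ± 0.07 (edgeR adjusted p = 0.549; 0.392 with the block), and 0.03 without IOX5 replicate 2. Of the 4 V0 genes 0 were called in either fit, and of the 6 V1 genes 0 were called without and 2 with the block. *Atp6v1b2*, *Atp6v1c1* and *Atp6v1h* had log2 fold changes between -0.10 and 0.18, and between -0.15 and 0.01 without IOX5 replicate 2.

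The genes of the TFEB family were not called in any fit listed above. *Tfeb* was at 17.5, 22.4, 15.4 and 15.9 CPM with DMSO and 12, 27.6, 14.9 and 14.7 CPM with IOX5. The sample numbered 2 was the highest of either group, and in the other 3 numbers IOX5 was below DMSO. In the fit without the block the log2 fold change was -0.04 ± 0.26 (edgeR adjusted p = 0.943; 0.654 with the block), and -0.36 without IOX5 replicate 2 (adjusted p = 0.256). *Tfe3*, the most abundant of the family per length, was at 56.3, 63.5, 58.1 and 55.2 CPM with DMSO and 55.4, 75.8, 64.1 and 56.8 CPM with IOX5. Its ranges overlapped, with a log2 fold change of 0.11 ± 0.10 (edgeR adjusted p = 0.590; 0.307 with the block), and 0.01 without IOX5 replicate 2. *Mitf* was at 12.4, 14.5, 10.2 and 11 CPM with DMSO and 12.5, 20.6, 10.7 and 10.8 CPM with IOX5. Apart from replicate 2 the IOX5 samples lay within the DMSO range, and the log2 fold change of 0.18 ± 0.23 (edgeR adjusted p = 0.711; 0.386 with the block) was -0.09 without IOX5 replicate 2. TFEB and TFE3 are known to be controlled mainly through phosphorylation and localization, which RNA counts do not measure.

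**Figure D2:**
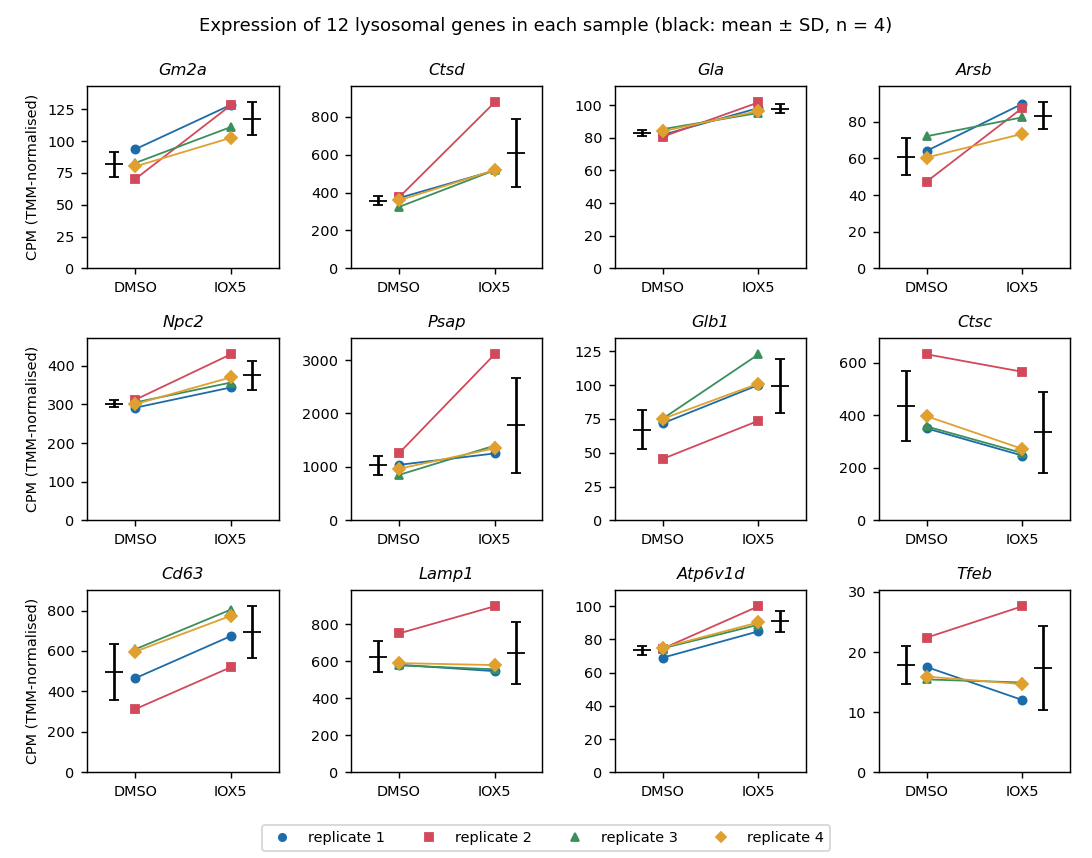
TMM-normalized CPM (vertical axes, from 0) of 12 lysosomal genes in the DMSO and IOX5 samples, with a line joining samples of the same replicate number and the mean ± SD of each group in black (n = 4). *Gm2a*, *Ctsd*, *Gla*, *Arsb*, *Npc2* and *Atp6v1d* separate without overlap, *Psap* is highest in IOX5 replicate 2 (3107 CPM), *Ctsc* is lower with IOX5 along every line, and *Lamp1* and *Tfeb* show no common slope.

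IOX5 replicate 2 was the highest sample in every class. For each sample, the median of the log2 CPM of a class was taken relative to the mean of the DMSO samples. For the soluble proteins it ran from -0.14 to 0.17 in the DMSO samples and was 0.24, 0.65, 0.11 and 0.02 in IOX5 samples 1 to 4. DMSO replicate 2, at 0.17, was thus above IOX5 replicates 3 and 4, and IOX5 was above DMSO within each number. In summed CPM, the soluble proteins were at 6109 ± 865 with DMSO and 7943 ± 2623 with IOX5 (SD, n = 4), the V-ATPase genes at 1925 ± 121 and 2099.9 ± 344 and the membrane proteins at 2601 ± 97.2 and 2959 ± 329.7. For the soluble proteins 11857 CPM in IOX5 replicate 2 was set against 6407 to 7018 CPM in the other IOX5 samples and 5270.2 to 7216 CPM in the DMSO samples.

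**Figure D3:**
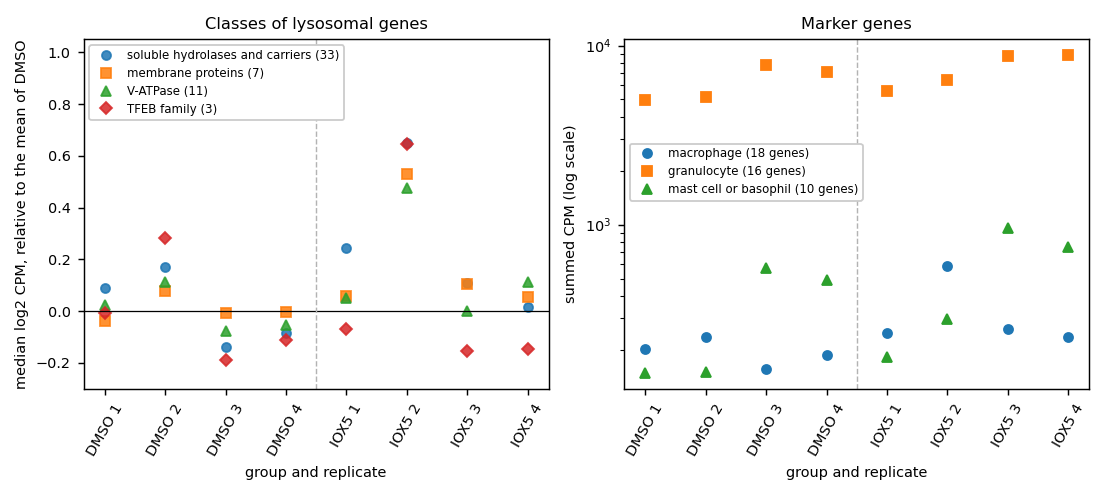
Left, the median log2 CPM of each class of lysosomal genes in each sample, relative to the mean of the DMSO samples. Right, the summed CPM of 3 marker lists in each sample on a log axis. IOX5 replicate 2 holds the highest class medians (0.65 for the soluble proteins) and the highest macrophage sum (588 CPM), whereas granulocyte and mast cell or basophil sums are higher in replicates 3 and 4 of both groups.

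Between genes, levels were compared as CPM per kb of annotated exonic length in the DMSO samples. *Psap* (374 ± 62.4 CPM per kb, SD, n = 4) and *Ctsz* (366 ± 70.3) were the most abundant and did not differ beyond their spread, followed by *Lamp1* (234 ± 31.4), *Laptm5* (186 ± 36.2) and *Ctsd* (152 ± 9.82). The neighbours *Lamp1* and *Laptm5*, and *Laptm5* and *Ctsd*, also lay within their spread. *Galc* (1.47 ± 0.231), *Acp5* (1.64 ± 0.331), *Mitf* (1.94 ± 0.309) and *Ids* (2.29 ± 0.423) were the lowest, and these neighbours overlapped within their SDs as well. The range over the 54 genes therefore covered more than 2 orders of magnitude, and the V-ATPase genes sat in its middle, between 14.2 (*Atp6v1h*) and 95.4 (*Atp6v0b* and *Atp6v0d1*) CPM per kb. All exons annotated for a gene enter its length, and the order depended on that choice. With the longest transcript alone *Psap*, *Ctsz*, *Lamp1* and *Laptm5* were again the first 4, but *Atp6v0b* (195.6 CPM per kb) was the fifth, *Lamp2* went from 64.9 to 172 CPM per kb (rank 16 to 7), and *Ctsd* went from rank 5 to 9. The lowest gene was then *Acp5* (2.30 CPM per kb), *Galc* was at 4.92 CPM per kb, and the V-ATPase genes lay between 19.998 and 195.6 CPM per kb.

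**Figure D4:**
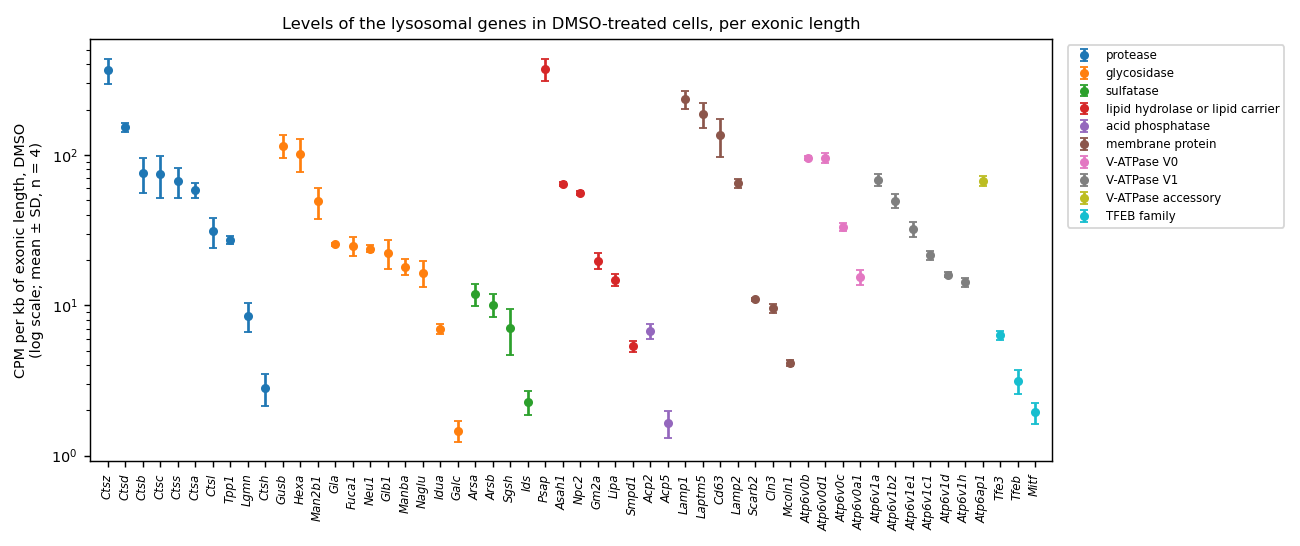
Level of each of the 54 lysosomal genes in the DMSO samples, as CPM per kb of exonic length on a log axis (mean ± SD, n = 4), ordered by class and by level within it. *Psap* and *Ctsz* stand at the top with 374 and 366 CPM per kb, and *Galc*, *Acp5* and *Mitf* lie under 2 CPM per kb.

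Promoter sequence was examined because TFEB family factors and HIF both bind short letters that overlap. RefSeq promoters (GRCm38.p6, from 250 bases before to 50 bases after each start) were found for 48 of the 54 genes. The 250 bases before the RefSeq start are printed on the strand of each gene, with CACGTG in capitals. They are given for *Gm2a*, *Ctsd* and *Gla*, whose groups did not overlap, and for *Lamp1*, which showed no difference beyond the spread. RefSeq starts can differ from the GENCODE M21 coordinates printed above. By those coordinates the stretches of *Ctsd* and *Gla* lie partly inside the gene, and that of *Gm2a* ends short of its start.

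*Gm2a* (chr11:55097735-55097984, plus strand): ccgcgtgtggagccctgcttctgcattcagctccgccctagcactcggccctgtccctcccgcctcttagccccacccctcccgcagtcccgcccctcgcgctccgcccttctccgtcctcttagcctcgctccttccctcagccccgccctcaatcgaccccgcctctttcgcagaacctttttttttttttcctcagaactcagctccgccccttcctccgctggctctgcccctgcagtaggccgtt
*Ctsd* (chr7:142387828-142388077, minus strand): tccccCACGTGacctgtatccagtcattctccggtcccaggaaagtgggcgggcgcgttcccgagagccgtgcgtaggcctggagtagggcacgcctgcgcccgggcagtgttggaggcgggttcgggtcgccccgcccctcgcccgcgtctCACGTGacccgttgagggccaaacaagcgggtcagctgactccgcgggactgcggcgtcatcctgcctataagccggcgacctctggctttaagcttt
*Gla* (chrX:134601006-134601255, minus strand): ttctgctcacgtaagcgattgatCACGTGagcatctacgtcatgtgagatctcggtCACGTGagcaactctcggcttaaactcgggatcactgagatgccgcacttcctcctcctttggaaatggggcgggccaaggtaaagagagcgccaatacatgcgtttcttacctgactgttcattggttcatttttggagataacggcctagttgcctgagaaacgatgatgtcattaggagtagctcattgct
*Lamp1* (chr8:13158911-13159160, plus strand): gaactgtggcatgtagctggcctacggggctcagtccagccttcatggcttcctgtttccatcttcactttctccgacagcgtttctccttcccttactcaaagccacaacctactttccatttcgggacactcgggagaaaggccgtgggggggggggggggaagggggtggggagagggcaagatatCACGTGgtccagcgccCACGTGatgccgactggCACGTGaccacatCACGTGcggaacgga

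*Gm2a*, the gene called without the block, had 0 copies of CACGTG in this stretch, *Ctsd* and *Gla* had 2 each, and *Lamp1* had 4. These 4 genes are examples, and a relation between copies and change was not tested. Over the whole window and both strands, TCACGTGA, the inner letters of the element bound by TFEB family factors, was present in 7 of the 48 promoters (*Atp6v0d1*, *Atp6v1a*, *Cln3*, *Ctsa*, *Ctsd*, *Gla* and *Mcoln1*; 14.6%), beside 2.29% of the promoters of the genes tested and 1.12% of all promoters. CACGTG, which it contains, was in 15 of 48 (31.3%, beside 12.1% of genes tested and 8.09% of all promoters). TCACGTG was in 14 of 48 (29.2%, beside 7.22% of genes tested and 4.29% of all promoters). ACGTG and GCGTG, the forms of the core letters bound by HIF, were in 20 (41.7%) and 22 (45.8%) of the 48, beside 30.2% and 56.4% of genes tested and 21.8% and 35.2% of all promoters. Each CACGTG also counts as ACGTG. The median log2 fold change was 0.22 for the 14 genes with TCACGTG and 0.24 for the 34 without, and with the block 5 of the 14 and 16 of the 34 were called higher. A match is a description of letters and not a measured binding site.

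The other genes of the lysosomal pathway, listed by hand, comprised 131 genes found in the counts, of which 116 passed the filter. Without the block 1 was called higher and 0 lower, beside 0.774% and 1.25% of all genes tested. With it 34 were called higher (29.3%, beside 11.2% of all genes tested). The block also called 3 lower (*Cd164*, *Fnip1* and *Ppp3cb*), beside 9.43% of all genes tested. The gene called in both was *Creg1*, which encodes a glycoprotein found in lysosomes and secretions, at 189, 190.0, 187 and 201 CPM with DMSO and 281, 306, 290.0 and 283 CPM with IOX5. The samples of each group lay close together and the groups were far apart, with a log2 fold change of 0.60 ± 0.05 (edgeR adjusted p = 0.0143; 9.88e-05 with the block), and IOX5 replicate 2 was near the other IOX5 samples. *Creg1* lost its call when IOX5 replicate 3, the third DMSO sample or the fourth was left out, comparisons in which 0 genes were called in all and 2111, 1969 and 1846 had an unadjusted p under 0.05. Among the further hydrolases, carriers and luminal proteins, 14 of 33 were called higher with the block and 0 lower (42.4% higher).

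Of the further membrane proteins, 5 of 34 were called higher and 1 lower with the block, and the 14.7% higher was close to the 11.2% of all genes tested (9.43% lower). *Laptm4a* and the cystine exporter *Ctns* had the smallest p, with log2 fold changes of 0.28 and 0.32 (edgeR adjusted p = 0.0696 and 0.193; 0.00961 and 0.0484 with the block). For the further V-ATPase subunits and assembly factors, 2 of 11 were called with the block, both higher (18.2%, with the same 11.2% of all genes beside it). *Atp6v1f* had a log2 fold change of 0.28 ± 0.06 (edgeR adjusted p = 0.0547; 0.00950 with the block). *Atp6v0d2*, the V0 isoform of osteoclasts and macrophages, was low, at 3.25, 1.17, 0.325 and 0.463 CPM with DMSO and 3.92, 10.2, 4.30 and 2.34 CPM with IOX5. It overlapped between the groups and was highest in IOX5 replicate 2, with a log2 fold change of 1.97 ± 0.71 (edgeR adjusted p = 0.168; 0.00438 with the block).

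In the mannose 6-phosphate sorting route, 2 of 9 genes were called higher with the block (22.2%) and 0 lower. Over all genes tested the shares with the block were 11.2% higher and 9.43% lower. *Gnptg* and *Gnptab*, subunits of the same phosphotransferase, had log2 fold changes of opposite sign, 0.32 and -0.15 (edgeR adjusted p = 0.126 and 0.228; 0.0296 and 0.104 with the block). Among regulators of TFEB, 5 of 20 were called higher (25%) and 2 lower with the block, beside the same 11.2% and 9.43%. *Lamtor4*, a subunit of the Ragulator complex that anchors mTORC1 at the lysosome, had a log2 fold change of 0.32 ± 0.08, and *Ppp3cb*, a catalytic subunit of calcineurin, which dephosphorylates TFEB, one of -0.21 ± 0.06 (edgeR adjusted p = 0.0676 and 0.0960; 0.00430 and 0.0384 with the block). The cystatins and other inhibitors of cathepsins were called higher with the block for 6 of 9 genes (66.7%, beside 11.2% of all genes tested). The abundant *Cst3* had a log2 fold change of 0.37 ± 0.08 and *Cstb* one of 0.49 ± 0.18 (0.27 without IOX5 replicate 2) (edgeR adjusted p = 0.0517 and 0.176; 0.00217 and 0.00177 with the block).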

How the data were processed

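RNA from 4 DMSO and 4 IOX5 samples of *iMLL-AF9* cells was profiled. Per the study's methods and the submitters' processing notes, the authors enriched poly(A) RNA, built strand-specific libraries and sequenced them from 1 end, then trimmed reads (cutadapt 1.18), mapped them to GRCm38 (HISAT2 2.2.1) and deposited raw counts per Ensembl gene (HTSeq 2.0.1), 1 library at a time and without normalization. The annotation release given to HTSeq is not given in the sources used here. Strand was kept, as *Xist* had 105071 reads and its antisense partner *Tsix* 21. Of the lysosomal genes, 17 overlap an exon of a gene on the opposite strand and 3 one on the same strand. The latter are *Ctsd* (808 exonic bases shared with *Gm49369*), *Ctsl* (395 with *Gm49230*) and *Glb1* (165 with *Tmppe*). *Gm49369* and *Gm49230* had 0 reads, and how reads in shared bases were assigned is not given in the sources used here. The 5 summary lines per file (20.6% to 22.6% of reads) were left out. Names and coordinates came from GENCODE M21, which matched 54809 genes and left 29 without a name.

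Counts were filtered with filterByExpr, scaled with TMM factors (0.988 to 1.03) and tested with edgeR 4.0.16 in R 4.3.3 (quasi-likelihood test, Benjamini-Hochberg adjustment over 12405 genes, common biological coefficient of variation 0.202). CPM values are TMM-normalized, and log2 CPM values use a prior count of 2. Levels per kb use the union of annotated exons. Groups came from the labels. The deviations from the group means of samples with the same number had correlations of 0.758, 0.744, 0.732 and 0.636 for numbers 1 to 4, each over 0.1, so the numbers were taken to pair the samples. Numbers 3 and 4 were not told apart by this, since DMSO replicate 4 correlated more with IOX5 replicate 3 (0.685) than with IOX5 replicate 4, and DMSO replicate 3 correlated with IOX5 replicate 4 at 0.617. This rests on the data, since the labels do not say what a number marks. The comparison was fitted without the block, as no block is stated in the study's methods, and with it.

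Alternatives were DESeq2 1.42.0, weighted voom of limma 3.58.1, scaling by RLE or by upper quartiles, no filter, at least 10 counts in every sample, each sample left out, each replicate number left out with the block, and the longest transcript as length. The steps were tested on simulated data. The genes and lists were chosen with earlier results of these data known. Described with every sample were the genes called, those called with the block whose groups did not overlap, the TFEB family, in each class those with the 2 smallest p and the highest CPM, and *Lamp1*, *Lamp2* and *Ctsd*. Of the other pathway genes, those called and the 2 with the smallest p per list were named, and 1 gene that this rule named is not reported here. Of the 134 other pathway symbols listed, 3 matched no gene. *Ctsc*, *Cd63*, *Cd164*, *Fnip1* and the single macrophage markers named were added after their values were seen.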

Additional observations from a re-analysis of the deposited data

Results flagged for a closer look

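For each of the 54 genes and both groups, the sample farthest from the other 3 was compared with the range of its group (Dixon's test, 108 groups). The highest or lowest sample stood apart in 18 groups, 13 of them for IOX5 replicate 2, 4 for DMSO replicate 2 and 1 for DMSO replicate 1. Chance alone marks about 1 in 20 groups, and genes of 1 sample are not independent.

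The largest of these values was *Psap* in IOX5 replicate 2, at 3107 CPM against 1251 to 1397 CPM in the other 3 samples of that group. In the same sample *Laptm5* was at 1067 CPM (722 to 748), *Lamp1* at 898 CPM (547 to 579.7), *Ctsd* at 877 CPM (517 to 519), *Ctsc* at 565 CPM (246 to 272) and *Ctsa* at 514 CPM (289 to 295). *Atp6v1b2* was at 401 CPM (258 to 272), *Hexa* at 376 CPM (196 to 227), *Atp6ap1* at 314 CPM (222 to 232), *Ctss* at 268 CPM (93.0 to 122), *Atp6v0d1* at 237 CPM (181 to 189), *Atp6v1c1* at 151 CPM (111 to 118) and *Cln3* at 80.6 CPM (49.7 to 54.6). All 13 values were above the rest of the group. That sample also had the highest sum of macrophage markers, 588 CPM, and the part of those cells was not tested.

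In DMSO replicate 2, *Lamp1* at 751 CPM (578 to 590.4 in the other DMSO samples), *Ctsc* at 632 CPM (349.5 to 396) and *Galc* at 27.0 CPM (19.7 to 20.4) were high, and *Glb1* at 45.5 CPM (71.9 to 75.3) was low. *Ctsc* and *Lamp1* thus stood apart in the same direction in both samples numbered 2. In DMSO replicate 1, *Atp6v1d* was low at 69.0 CPM (74.5 to 75.1).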

How the results depend on the processing

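Leaving out single samples without the block, or both samples of a replicate number with it, changed the number of lysosomal genes called higher to between 0 and 2 and to between 14 and 23, with 0 and 1 called lower. Over all genes, 0 to 130 were called higher and 0 to 333 lower without the block. With it the numbers were 642 to 1355 and 403 to 1058. Other pathway genes called higher numbered 0 to 1 and 16 to 36 in these fits, and 0 to 2 were called lower. With all samples the replicate block gave 23 lysosomal genes higher and 1 lower, and 34 other pathway genes higher and 3 lower. DESeq2 gave 7 lysosomal genes higher, and 7 other pathway genes higher and 1 lower. For voom the numbers were 6, 9 and 1, beside 426 higher and 610 lower of all 12405 genes tested. Upper-quartile factors and at least 10 counts in every sample gave 3 lysosomal and 2 other pathway genes higher, and no filter gave 2 lysosomal genes higher. Over all genes, these 3 settings called 101 of 12405, 117 of 11373 and 79 of 25386 higher. *Gm2a* was not called in 7 of the 8 fits that each left out 1 sample without the block. The median log2 fold change of the soluble proteins ran from 0.0898 (without IOX5 replicate 2) to 0.41 (without IOX5 replicate 4). Genes near 0 changed sign, and the cause was not tested. The log2 fold change of *Lamp2* was 0.0093 with DESeq2 and with RLE factors, 0.016 with upper-quartile factors, 0.0041 without the filter and 0.013 with 10 counts in every sample. That of *Atp6v1a* was 0.0047 with DESeq2 and RLE factors, 0.011 with upper-quartile factors and 0.0081 with 10 counts, and that of *Lamp1* was -0.021 with voom. With samples left out, it ran from -0.0737 to 0.0389 for *Lamp2*, -0.16 to 0.0691 for *Atp6v1a*, -0.16 to 0.15 for *Lamp1*, -0.14 to 0.19 for *Ctsz*, -0.18 to 0.0515 for *Gusb*, -0.36 to 0.10 for *Tfeb* and -0.0892 to 0.28 for *Mitf*. The block changed no call of a lysosomal gene beyond those named for it. With the longest transcript as length, the order by level per kb changed beyond the first 4 genes, and the rank of *Galc* was 50 instead of 54. Depth limited *Acp5* most, with 377 reads over all 8 samples.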
